A study of Mus musculus with 24 samples.

Results

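The 6 libraries described here come from CD11c-positive cells of Myd88 knockout mice that carried MC38 tumours, a mouse colon carcinoma line. The combination group received an antibody against PD-1 by intraperitoneal injection and live LGG (Lactobacillus rhamnosus GG) by mouth. The IgG group received the control antibody. Each group holds 3 libraries, and the series holds 24 libraries in 8 groups, in which wild-type and Myd88 knockout mice each received IgG, anti-PD-1, LGG or anti-PD-1 with LGG. The members were chosen by label, and this pair was picked because its replicates lay closest together among the knockout groups, so the small spread inside the groups is a description and not a result. Both groups share the C57BL/6 strain, the Myd88 knockout, an age of 6 to 8 weeks and 1000000 tumour cells injected under the skin of the right flank. They also share the antibody schedule of 200 µg per mouse, given at 2 doses a week for 2 to 3 weeks, with the start at a tumour size of 100 mm3, reached 7 to 10 days after injection. The combination differs from IgG in the antibody and in LGG at the same time, so the contribution of each cannot be told apart in this comparison. The cells were purified with CD11c MicroBeads from a tissue the labels call MLN, an abbreviation they do not spell out and that commonly stands for the mesenteric lymph node, which drains the gut. The labels give neither the part of Myd88 that was deleted nor whether the replicates are separate animals, and mice are said to have been pooled before they were divided into groups. P-values may therefore measure technical spread only.

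Myd88 is the adaptor protein through which most Toll-like receptors and the receptors for IL-1 and IL-18 activate NF-kB, the transcription factor family behind many inflammatory genes. Toll-like receptors 3 and 4 can signal through the adaptor TRIF (Ticam1), and cytosolic sensors and C-type lectin receptors signal through other adaptors. Bacterial products can therefore reach NF-kB and the interferon genes without Myd88. Dendritic cells that detect microbes raise costimulatory molecules and the chemokine receptor Ccr7 and present antigen to T cells. PD-1, the target of the antibody, is an inhibitory receptor of activated T cells whose ligand PD-L1 (Cd274) is carried by dendritic cells and macrophages.

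Values are the deposited normalised counts, that is, reads per gene after scaling between libraries. They are not divided by gene length, so they compare libraries and not genes. The combination libraries held 34685615, 33782688 and 28179103 reads in the listed genes, and the IgG libraries held 49272593, 27762574 and 45583116. The biological coefficient of variation was 0.033 among the combination libraries and 0.0822 among the IgG libraries, beside 0.374 among the knockout libraries with anti-PD-1 alone. IgG replicate 3 lay farthest from its group. Of 12767 listed genes, the 12244 with a mean of at least 10 over the 6 libraries were tested.

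Some libraries went against their labels. All mice are labelled female, yet the Y-linked genes Ddx3y, Eif2s3y, Kdm5d and Uty were present in every knockout library. Ddx3y stood at 1529, 1559 and 1473 normalised counts in the combination libraries, against 1482, 1527 and 1853 in the IgG libraries. In the wild-type libraries it stood at 0 to 4.50 with the combination and 0.903 to 2.26 with IgG. The 4 Y-linked genes did not pass the test between combination and IgG in the knockout, whereas knockout and wild-type libraries stand apart in them. Myd88 itself stood at 748, 758 and 742 in the combination libraries, against 1327, 1349.7 and 1136 in the IgG libraries. Wild-type mice had 1723 to 1919 with the combination and 1774 to 1970.2 with IgG. The knockout libraries of both groups thus lay below the wild-type ones but kept Myd88 reads. Reads summed over the gene cannot tell whether the deleted part is missing.

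Markers of dendritic cells were checked beside those of macrophages. Itgax, which encodes CD11c, stood at 53698, 51733 and 51199.7 in the combination libraries, against 36057, 36532 and 37760.5 in the IgG libraries. Zbtb46, a transcription factor of conventional dendritic cells, stood at 363, 369 and 383, against 212, 197 and 220.3. Flt3, the receptor for the growth factor of these cells, stood at 43.0, 48.5 and 41.0, against 9.78, 5.84 and 8.64. Macrophage and monocyte transcripts were also present in every library, among them Lyz2 (lysozyme) at 244522, 233428 and 235902 in the combination libraries, against 290112, 323186 and 339522 in the IgG libraries. CD11c is carried by many macrophages as well, and the purity of the dendritic cells cannot be read from these bulk values, in which more cells of a type and more RNA per cell cannot be told apart.

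In the knockout, the combination was accompanied by higher levels of interferon-response, NF-kB, nitric oxide, redox and dendritic-cell maturation genes, and by lower levels of cell cycle and alternative activation genes. Between combination and IgG, 7219 of 12244 genes passed an adjusted p of 0.05 (limma, Benjamini-Hochberg over all genes tested), a share of 59%. Of these, 3678 were higher with the combination (30%) and 3541 were lower (28.9%). Changes over 2-fold were fewer, at 1204 genes (9.83%), with 878 genes higher (7.17%) and 326 lower (2.66%). The 3 combination libraries lay apart from the 3 IgG libraries without overlap in 7825 genes (63.9%). The median log2 fold change of all genes tested was 0.0068. With so many genes called, the counts of each gene list below are to be read against these shares. Fitted with all 24 libraries, whose spread includes the wider knockout groups, 4267 of 12749 genes were called (33.5%; 19.1% higher and 14.4% lower), and a list's counts in that fit are given where they differ by over 1.5 times. Without IgG replicate 3, 8027 genes were called.

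**Figure D1:**
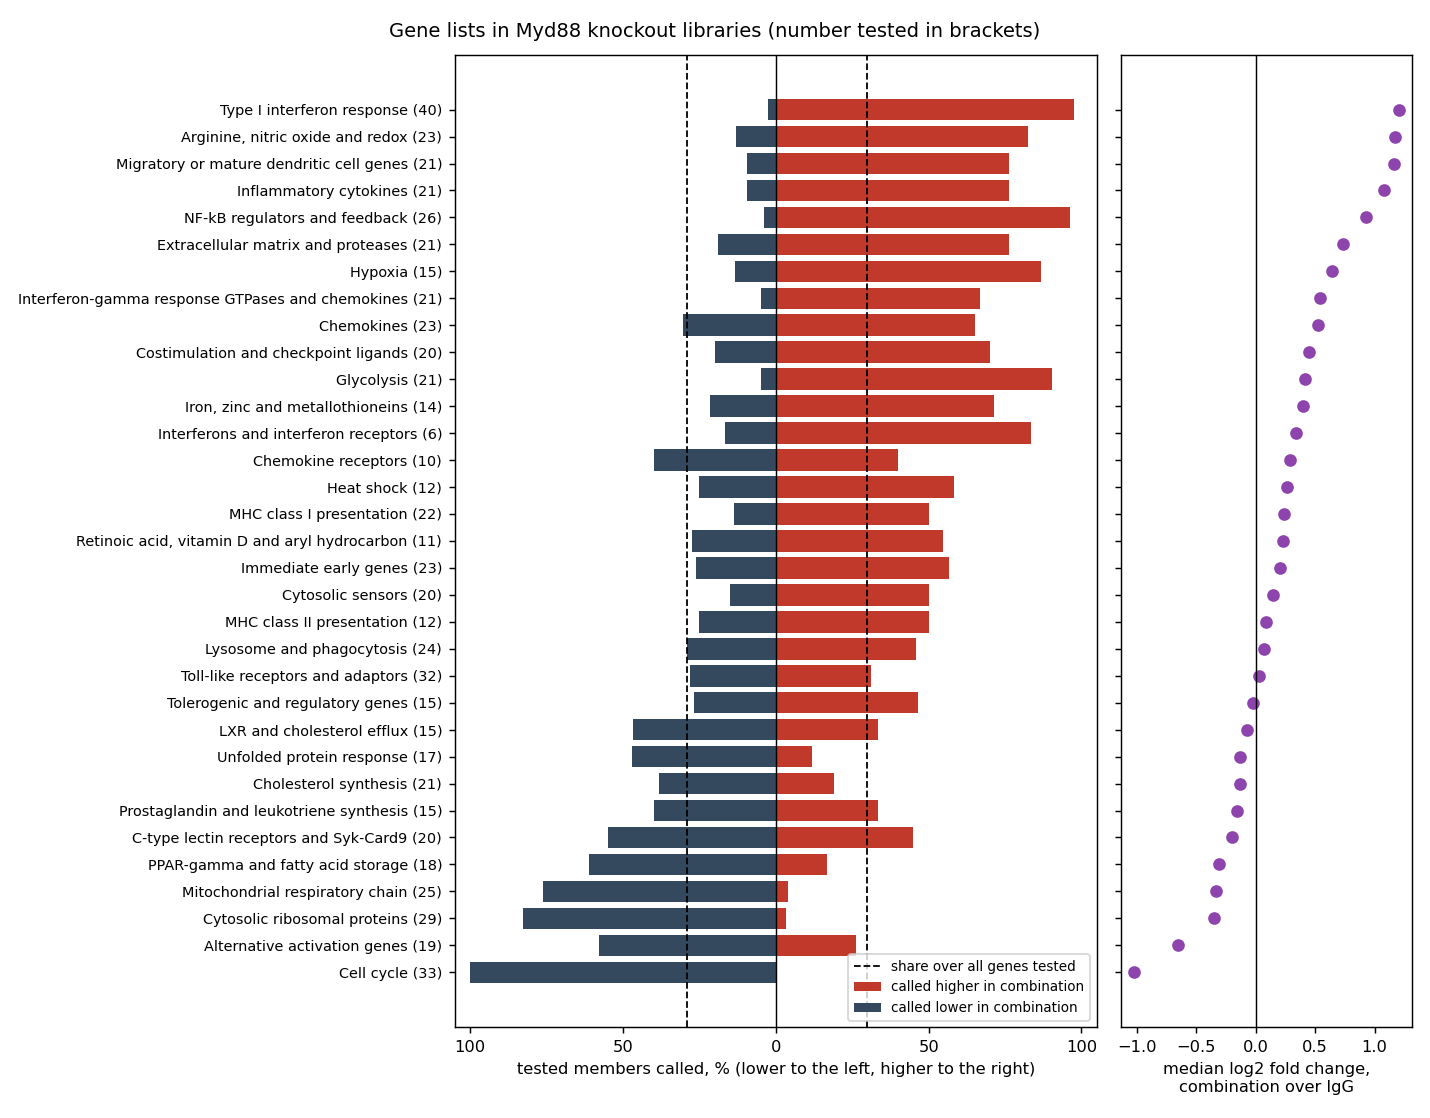
Bars give the percentage of tested members called lower (left) or higher (right) with the combination than with IgG in each gene programme list. Dashed lines give the share over all genes tested (28.9% lower, 30% higher). The Y-linked genes and the cell type marker lists are not drawn. Points on the right give each drawn list's median log2 fold change, which runs from -1.03 for the cell cycle to 1.21 for the type I interferon response. Some marker lists had higher medians, up to 1.78 for erythroid cells and platelets.

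The 12 largest rises were led by Cyp26b1, an enzyme that degrades retinoic acid. It stood at 1218, 1204 and 1121 normalised counts in the combination libraries, against 50.2, 31.6 and 43.9 in the IgG libraries, a 28.0-fold difference (log2 fold change 4.81 ± 0.14 SE, adjusted p = 7.11e-12). Every combination library lay above every IgG library by more than an order of magnitude. Il1f9, which encodes the cytokine IL-36 gamma, stood at 817, 686 and 702, against 31.3, 32.7 and 25.9 (23.8-fold; log2 4.57 ± 0.13; adjusted p = 5.62e-12). Clec4e, which encodes Mincle, a receptor for microbial glycolipids, stood at 12839, 11964 and 12195, against 597, 644 and 622 (19.8-fold; log2 4.31 ± 0.057; adjusted p = 2.60e-15). Only genes whose libraries did not overlap between the groups could be named as largest rises, so their separation is a condition of selection. Nos2, the inducible nitric oxide synthase, stood at 1522, 1639 and 1548, against 116, 106 and 107 (14.2-fold; log2 3.82 ± 0.081). Acod1, the enzyme that makes itaconate, stood at 34369, 32617 and 33163, against 2766, 3008 and 2854 (11.6-fold; log2 3.54 ± 0.053). Both are inflammatory enzymes of activated myeloid cells. Inhba, the subunit of activin A, stood at 4320.4, 4781 and 3623, against 253, 175 and 509 (14.9-fold; log2 3.89 ± 0.41). Its IgG libraries were less even than for the other genes, with replicate 3 the highest, and they still lay far below the combination. The neutrophil-attracting chemokine Cxcl3 stood at 8239.9, 7799 and 7867, against 649, 680.1 and 669 (11.9-fold; log2 3.58 ± 0.056). Of the other largest rises, Rtn4rl2 (a receptor of the Nogo receptor family) rose 24.2-fold, Gsta2 (a glutathione S-transferase) 22.5-fold and Ptpn14 (a tyrosine phosphatase) 19.1-fold. Wnk2 (a kinase) rose 13.7-fold and Lox (lysyl oxidase, which cross-links collagen) 13.1-fold.

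The largest falls were mostly of genes with low counts. Slco2b1, an organic anion transporter, stood at 21.0, 25.2 and 15.2 in the combination libraries, against 206, 210.3 and 204 in the IgG libraries (log2 fold change -3.30 ± 0.19 SE, adjusted p = 4.49e-09). G0s2, an inhibitor of triglyceride breakdown, stood at 108, 85.4 and 110.1, against 731, 762 and 604 (log2 -2.78 ± 0.12). Retnla, a marker of alternatively activated macrophages, stood at 241, 227 and 273, against 1211, 1217 and 986 (log2 -2.20 ± 0.099). Genes were named as largest falls only where the libraries of the groups did not overlap, so their separation is a condition of selection. Id1, an inhibitor of DNA-binding transcription factors, stood at 69.7, 53.4 and 71.4, against 322, 264 and 264 (log2 -2.12 ± 0.15). The monocyte chemokine Ccl12 stood at 53.5, 34.9 and 53.9, against 209.9, 233 and 176 (log2 -2.11 ± 0.18). The matrix protein gene Matn2 (log2 -3.29), the pseudokinase gene Fam20a (-3.12), Pgm5 (-2.42), S100a9 (-2.21), Col4a5 (-2.12), Chst13 (-2.11) and Hdac9 (-2.10) completed the 12 largest falls. Their combination means ran from 4.06 for Col4a5 to 13.9 for Hdac9, so these folds rest on few reads.

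**Figure D2:**
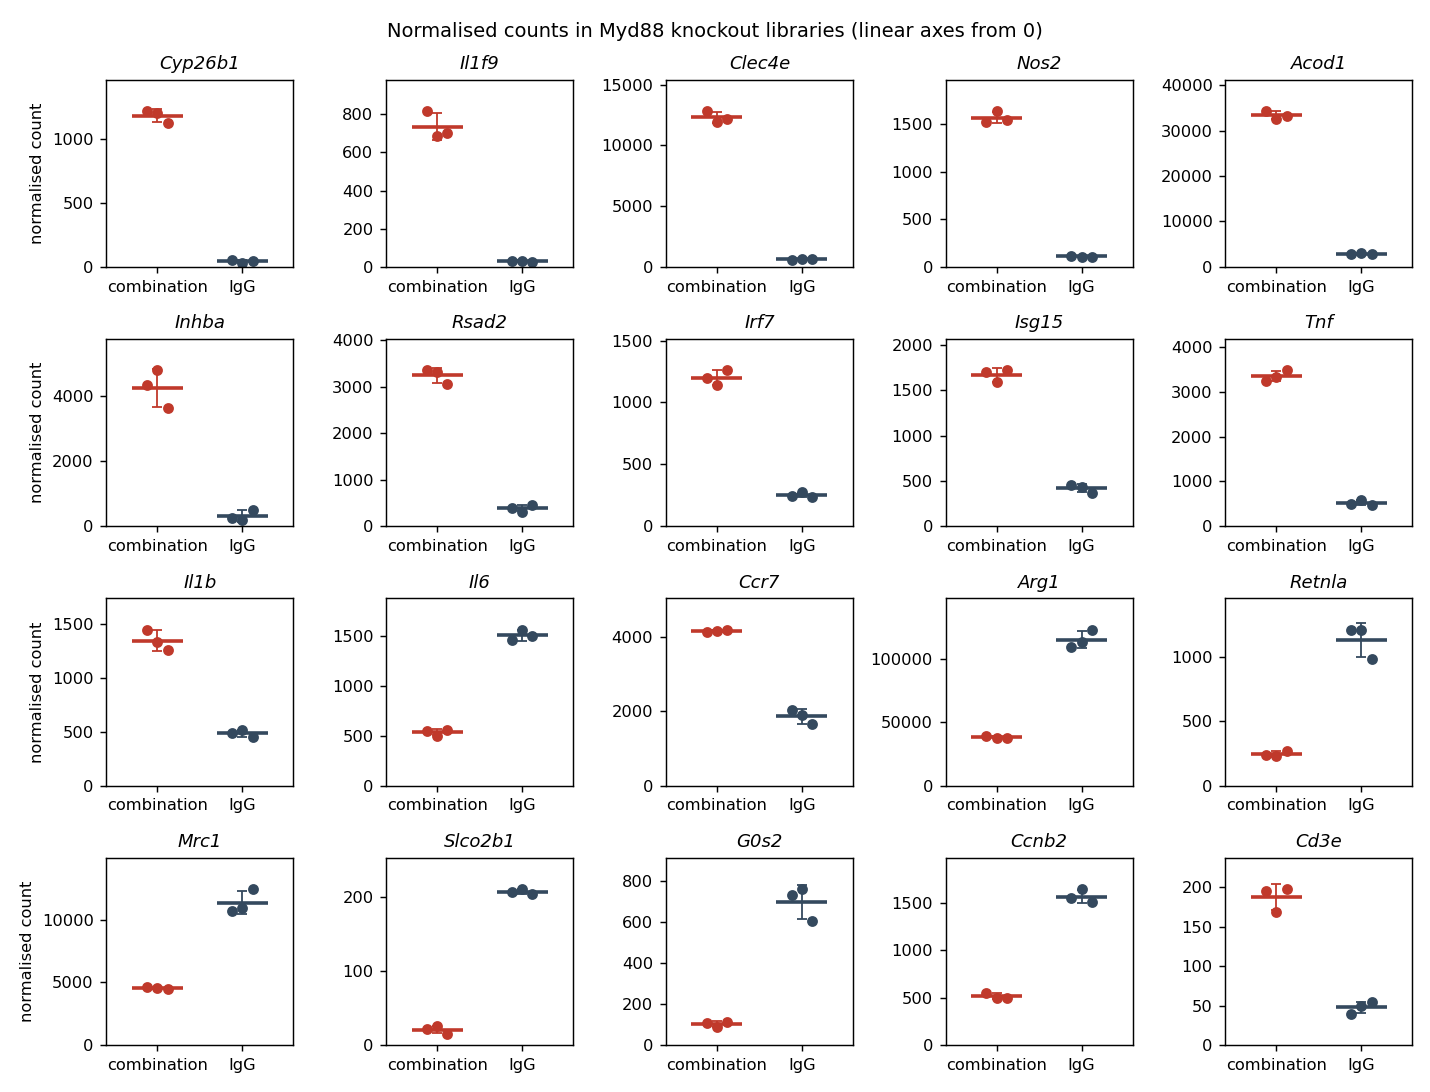
Each panel plots the normalised count of 1 gene (linear axis from 0) in the 3 combination and the 3 IgG libraries of Myd88 knockout mice, with a line at the mean and bars of 1 SD. The groups do not overlap in any panel, from Cyp26b1 (1181 with the combination and 41.9 with IgG on average) to Cd3e (188 and 47.6), and Il6, Arg1, Retnla, Mrc1, Slco2b1, G0s2 and Ccnb2 lie lower with the combination. For genes named as the largest rises or falls, this was a condition of selection.

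Among receptors that detect microbes, direction was split. Of 32 tested Toll-like receptors, co-receptors and adaptors, 10 rose, 9 fell and 13 did not pass the test, near the shares over all genes, and their median log2 fold change was 0.02. Tlr2, the receptor for bacterial lipoproteins and components of the Gram-positive wall, stood at 2789, 2695 and 2728 in the combination libraries, against 807, 809.8 and 824 in the IgG libraries (3.36-fold; log2 1.75 ± 0.057; adjusted p = 1.78e-11). Tlr4, the receptor for lipopolysaccharide, stood at 2065, 2032 and 1985, against 3364, 3161 and 3857 (log2 -0.77 ± 0.07). Every combination library was above the IgG range for Tlr2 and below it for Tlr4. Myd88, given above, fell by the same measure (log2 -0.76 ± 0.075; adjusted p = 1.14e-06). Downstream of these receptors, the ubiquitin ligase gene Traf3 rose (log2 1.15), as did the kinase gene Tbk1 (0.67), which acts in interferon induction, and Irak3 (0.80), a negative regulator of Toll-like receptor signalling. Ly86, which encodes MD-1, fell (-0.96). Irf3, the transcription factor that Tbk1 activates, averaged 1571 ± 5.58 with the combination and 1586 ± 205 with IgG (SD, n = 3 each) and did not pass the test.

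Of 20 tested cytosolic sensors and inflammasome genes, 10 rose and 3 fell. The RNA sensor genes Ddx58 (RIG-I; log2 1.12) and Ifih1 (MDA5; 0.62) rose, as did the inflammasome genes Mefv (2.33), Nlrp3 (0.79) and Casp4 (0.73). Pycard, the inflammasome adaptor ASC, fell (log2 -1.13), a call that was lost in the fit of all 24 libraries (adjusted p = 0.079). Tmem173, which encodes STING, the sensor of cyclic dinucleotides, stood at 4095, 4047 and 4022 in the combination libraries, against 4362, 4111 and 3828 in the IgG libraries, and did not pass the test.

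C-type lectin receptors divided into both directions, with 9 of 20 tested members higher and 11 lower. The activating receptors Clec4e, Clec4d (log2 1.98) and Clec4n (Dectin-2; 1.65), which signal through the Fc receptor gamma chain and Syk, rose together with the downstream gene Malt1 (1.32). Clec10a (log2 -1.55) and the mannose receptor gene Mrc1 (-1.33), both known from alternatively activated macrophages, fell. The 3 activating receptor genes lie together on chromosome 6 (GRCm38), where Clec4n starts at 123229843 and Clec4e ends at 123289870.

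NF-kB regulators and feedback inhibitors were higher nearly throughout. Of 26 tested members, 25 rose and 1 fell, 11 of them by over 2-fold, with a median log2 fold change of 0.93. Nfkbie, which encodes the inhibitor I-kappa-B epsilon, stood at 2891, 2945 and 2927 in the combination libraries, against 531, 599 and 523 in the IgG libraries (5.30-fold; log2 2.41 ± 0.067; adjusted p = 4.54e-12). Relb, a subunit of the non-canonical NF-kB pathway, stood at 3005, 2977 and 2991, against 761, 816 and 716 (3.91-fold). Its partner Nfkb2 stood at 4737, 4826 and 4797, against 1726, 1753 and 1684 (2.78-fold). The groups were apart in all 3 genes. The signalling adaptor gene Traf1 (log2 2.33), Tnfaip3 (A20, an inhibitor of NF-kB; 1.52) and the superoxide dismutase gene Sod2 (1.45) also rose. The member that fell was Zfp36 (log2 -0.57), which encodes tristetraprolin, a protein that destabilises cytokine mRNAs.

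Inflammatory cytokines moved mostly upward, with 16 of 21 tested members higher, 2 lower and a median log2 fold change of 1.08. Tnf stood at 3248, 3331 and 3485 in the combination libraries, against 499, 594 and 482 in the IgG libraries (6.41-fold; log2 2.68 ± 0.078; adjusted p = 6.35e-12). Il1rn, the natural antagonist of the IL-1 receptor, stood at 14550.1, 13819 and 14072, against 2747, 2322 and 2605 (5.54-fold; log2 2.47 ± 0.063). For both genes, every combination library lay above every IgG library. Il1b stood at 1446, 1327 and 1253, against 489, 518 and 454 (2.75-fold; log2 1.46 ± 0.078), and Il1a, the other IL-1 cytokine, rose as well (log2 1.08). Il6 went the other way, at 547, 499 and 559.8 in the combination libraries, against 1452, 1560.1 and 1496 in the IgG libraries (log2 -1.49 ± 0.07; adjusted p = 6.42e-10). Every combination library lay well under the lowest IgG library. Osm, oncostatin M, was the other member that fell (log2 -0.74). The 2 chains of IL-12 were at low counts. Il12a stood at 20.1, 23.3 and 25.8, against 2.61, 8.18 and 1.44, and Il12b at 29.6, 20.4 and 46.8, against 7.82, 15.2 and 14.4; both were called higher (log2 2.47 and 1.28). Il10, an anti-inflammatory cytokine, was under the filter on low values and was not tested, at 1.91, 8.74 and 4.68 with the combination and 2.61, 0 and 2.16 with IgG.

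Among chemokines, 15 of 23 tested members rose and 7 fell (10 and 4 in the fit of all 24 libraries). Rises included Cxcl3, given above, Ccl22 (log2 1.41), a ligand of Ccr4, Cxcl16 (1.56), the ligand of Cxcr6, and the platelet chemokine gene Ppbp (1.78). The monocyte-attracting Ccl7 stood at 4156, 3929.9 and 4248 in the combination libraries, against 14551, 14775 and 12715 in the IgG libraries (log2 -1.77 ± 0.063). Ccl2, of the same receptor, stood at 7762, 7709 and 7900.5, against 12687, 12849.9 and 12671 (log2 -0.71 ± 0.048). Both genes were lower in every combination library, as was their receptor gene Ccr2 (log2 -0.83).

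The type I interferon response had the highest median of the gene programme lists. Of 40 tested members, 39 rose and 1 fell, 26 rose by over 2-fold, and the median log2 fold change was 1.21. All 40 lay apart between the groups without overlap. Promoters of 3 genes that held matches are shown, from the interferon and cell cycle lists, which each moved almost wholly in 1 direction, and in opposite ones. They do not stand for all promoters searched, of which those without a match are named below. Each run gives 160 bases before the RefSeq start on the gene's own strand (GRCm38.p6), with matches to the searched motifs in capitals on either strand.

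Rsad2 (chr12:26456453-26456612, minus strand): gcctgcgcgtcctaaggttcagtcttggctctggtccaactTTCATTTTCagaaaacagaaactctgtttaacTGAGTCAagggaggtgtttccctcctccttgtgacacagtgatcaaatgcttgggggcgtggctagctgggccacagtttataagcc
Ifit3 (chr19:34583369-34583528, plus strand): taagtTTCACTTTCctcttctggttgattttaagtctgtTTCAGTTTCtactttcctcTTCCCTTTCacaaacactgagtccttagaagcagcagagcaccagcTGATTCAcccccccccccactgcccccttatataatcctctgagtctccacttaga
Ube2c (chr2:164769769-164769928, plus strand): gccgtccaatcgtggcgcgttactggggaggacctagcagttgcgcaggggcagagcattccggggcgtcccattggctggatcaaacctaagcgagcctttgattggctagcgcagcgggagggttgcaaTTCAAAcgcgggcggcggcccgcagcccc

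The motifs searched were the core of the interferon-stimulated response element (GAAANNGAA), the site read by interferon-activated transcription factors, a kappa-B core (GGANTTTCC), the AP-1 site (TGANTCA) and the cell cycle homology region (TTTGAA), each on both strands of the 250 bases before the start. In Rsad2 the capitals mark a response element at bases 119 to 111 before the start and an AP-1 site at 87 to 81. In Ifit3 they mark response elements at 155 to 147, 121 to 113 and 102 to 94 and an AP-1 site at 56 to 50. In Ube2c they mark a cell cycle homology region at 29 to 24. The response element core was found in 15 of the 30 promoters matched for the tested interferon members (50%), beside 7.16% of 27025 RefSeq promoters. The kappa-B core was found in 4 of 23 promoters matched for the NF-kB list and 2 of 16 for the cytokine list, beside 1.05% of all promoters. The cell cycle motif was found in 8 of 27 promoters of the cell cycle list, beside 16.3% of all promoters. AP-1 sites were in 6.87% of all promoters. Among the 9699 promoters of tested genes the shares were 6.57% for the response element core, 1.07% for the kappa-B core, 10.7% for the cell cycle motif and 4.30% for the AP-1 site. A match describes the letters in the window and is not evidence of a bound site. No match to these letters was found in the windows of Oasl1, Cmpk2, Oasl2, Irf7, Il1f9, Tnf and Rrm2. Il1rn held an AP-1 site and Ccnb2 a cell cycle homology region.

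Rsad2, which encodes viperin, an antiviral enzyme, stood at 3350.4, 3320.4 and 3047 in the combination libraries, against 394, 313 and 448 in the IgG libraries (8.48-fold; log2 3.08 ± 0.1; adjusted p = 2.45e-11). Irf7, the transcription factor that amplifies interferon production, stood at 1196, 1141 and 1260.1, against 245, 273 and 236 (4.76-fold; log2 2.25 ± 0.081). Isg15, a ubiquitin-like modifier, stood at 1702, 1587 and 1722, against 452, 438 and 369 (3.99-fold; log2 1.99 ± 0.083). All combination libraries exceeded all IgG libraries in these genes. Ifit3, which binds viral RNA in complexes with other Ifit proteins, rose as well (log2 2.60), although its near copy Ifit3b may share reads with it. The 2'-5'-oligoadenylate synthetase-like genes Oasl1 (log2 2.83) and Oasl2 (1.74) and the nucleotide kinase gene Cmpk2 (2.39), the neighbour of Rsad2 on chromosome 12, followed. Ifitm3, an antiviral membrane protein gene, was the member that fell (log2 -0.27), a call lost in the fit of all 24 libraries (adjusted p = 0.438). That fit called 37 members higher, and Eif2ak2 (log2 0.43; adjusted p = 0.154 there), which encodes the RNA-activated kinase PKR, was not among them. Ifnb1, the interferon-beta gene itself, stood at 15.3, 13.6 and 16.4 in the combination libraries, against 1.96, 1.17 and 0 in the IgG libraries, and was under the filter, so it was not tested.

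The interferon-gamma response was more mixed, with 14 of 21 tested members higher, 1 lower and a median log2 fold change of 0.54. Cxcl10, a ligand of Cxcr3, stood at 185, 226 and 200.3 in the combination libraries, against 39.8, 44.4 and 38.9 in the IgG libraries (4.87-fold; log2 2.28 ± 0.14). The guanylate-binding protein gene Gbp5 rose (log2 1.78), as did Irgm1 (0.89), Gbp6 (0.84) and Gbp2 (0.56), whereas Gbp8 fell (-0.70). Cxcl9 was under the filter, with means of 5.22 and 3.89. Among the receptors, Ifnar1 rose (log2 0.48) and Ifngr1 fell (-0.83). Ifng stood at 269, 259 and 276, against 63.9, 71.3 and 70.6 (log2 1.95 ± 0.12). It is made by T and natural killer cells, whose markers moved with it as given further on.

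**Figure D3:**
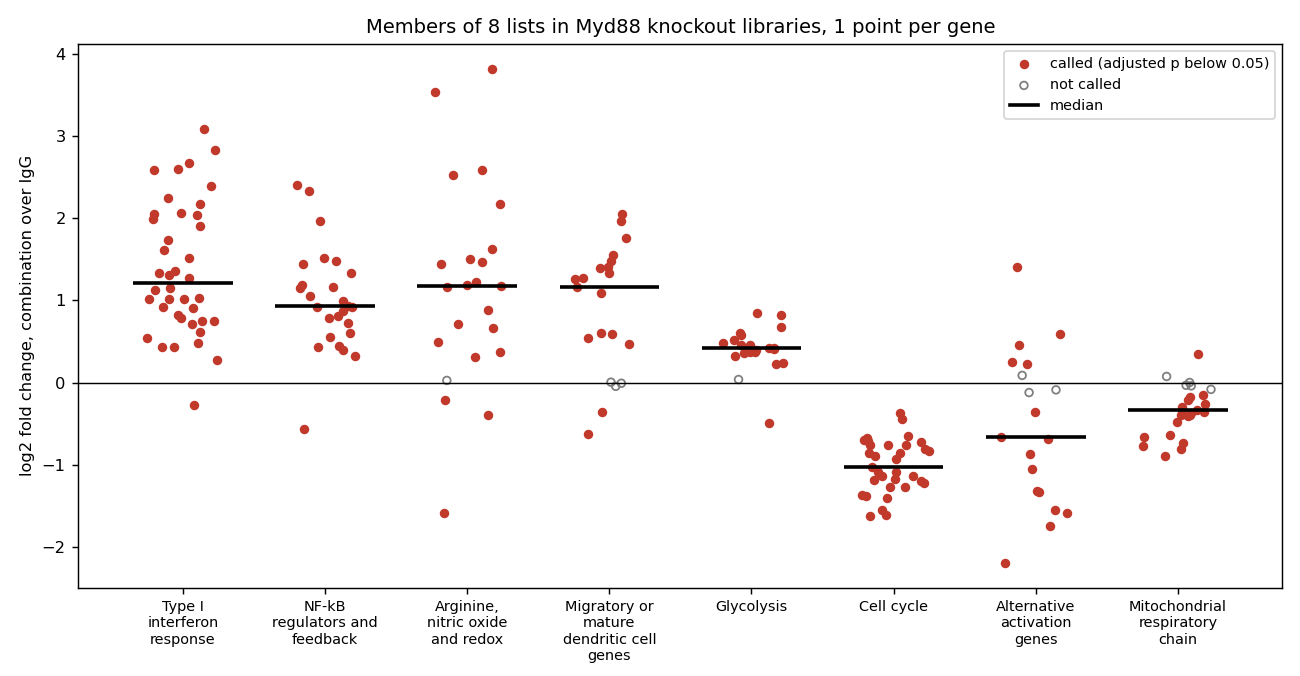
Each point is the log2 fold change (combination over IgG, knockout) of 1 tested gene in 8 lists, filled where called at an adjusted p below 0.05, with a line at the list's median. Type I interferon members lie above 0 except Ifitm3 (-0.27), all 33 cell cycle members lie below 0, and alternative activation genes spread from -2.20 (Retnla) to 1.41 (Ccl22).

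Genes of mature, migrating dendritic cells rose in 16 of 21 tested members and fell in 2, with 12 over 2-fold and a median log2 fold change of 1.17. Ccr7, which guides dendritic cells to lymph nodes, stood at 4140.0, 4143 and 4194 in the combination libraries, against 2034, 1886 and 1653 in the IgG libraries (2.25-fold; log2 1.17 ± 0.07; adjusted p = 7.19e-09). Fscn1, the actin-bundling protein fascin, stood at 2252, 2426 and 2565, against 573, 587 and 573 (4.17-fold; log2 2.06 ± 0.066). Both were higher in every combination library. Cacnb3 (log2 1.40) and the apoptosis inhibitor gene Birc3 (1.34) rose with them. The members that fell were Anxa3 (log2 -0.62) and Samsn1 (-0.36).

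Of 20 tested costimulatory and checkpoint genes, 14 rose and 4 fell (13 and 2 in the fit of all 24 libraries). Cd40, the receptor through which T cells license dendritic cells, stood at 771, 799.8 and 872 in the combination libraries, against 169, 197 and 126 in the IgG libraries (5.02-fold; log2 2.33 ± 0.13; adjusted p = 4.36e-09). Cd80 stood at 459, 454 and 453, against 344, 318 and 336 (log2 0.45 ± 0.08). Cd86 stood at 1331, 1193 and 1154, against 947, 1039 and 974 (log2 0.31 ± 0.072). The 2 ligands of CD28 thus rose by less than Cd40, and still lay above the IgG range. Cd274, which encodes PD-L1, stood at 18287, 18352 and 17381, against 9607, 9933 and 12123 (1.71-fold; log2 0.78 ± 0.075). Pdcd1lg2, which encodes PD-L2, stood at 5134, 5019.8 and 5221, against 3704, 3993 and 3558 (1.37-fold; log2 0.45 ± 0.057). The tumour necrosis factor receptor family members Tnfrsf9 (4-1BB; log2 1.76) and Tnfrsf4 (OX40; 1.19) rose, and the inhibitory ligand gene Vsir (VISTA) fell (-0.67). Pdcd1, which encodes PD-1, was under the filter, with means of 5.80 and 1.26.

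Antigen presentation genes moved in both directions. Of 22 tested class I genes, 11 rose and 3 fell, with 0 over 2-fold, and the member with the smallest p was Tapbp (tapasin, which helps load peptides; log2 0.80). The class I members that fell numbered 7 without IgG replicate 3, 6 with array weights and 0 in the fit of all 24 libraries. The class I regulator Nlrc5 (log2 0.59) and the class I genes H2-D1 (0.47), H2-Q4 (0.53), H2-Q6 (0.51) and H2-Q7 (0.53) rose too; the last pair is near-identical and may share reads. Of 12 tested class II genes, 6 rose and 3 fell, but 2 and 1 were called in the fit of all 24 libraries, and 1 fell without combination replicate 1. H2-Oa rose most among the named class II genes (log2 1.37), and H2-DMb1 fell (-0.52).

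Genes of arginine use, nitric oxide and the antioxidant response rose in 19 of 23 tested members and fell in 3, with 13 over 2-fold higher and a median log2 fold change of 1.18. Besides Nos2 and Acod1, Hmox1, the haem-degrading enzyme, stood at 51987, 50172 and 51914 in the combination libraries, against 9438, 8783 and 8461 in the IgG libraries (5.78-fold; log2 2.53 ± 0.054). Slc7a11, the cystine importer, stood at 12614, 12322 and 12348, against 2077, 1927 and 2178 (6.04-fold; log2 2.59 ± 0.057). The glutathione synthesis gene Gclm (log2 1.62) and the sulfiredoxin gene Srxn1 (1.50) also rose. All 4 are known targets of the stress-responsive factor Nrf2. Arg1, which competes with Nos2 for arginine, moved the other way, at 39426, 37759 and 37997 in the combination libraries, against 109878, 113482 and 123425 in the IgG libraries (3.01-fold lower; log2 -1.59 ± 0.056; adjusted p = 4.17e-11).

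Genes of iron, zinc and metallothioneins followed in the same direction. Of 14 tested members, 10 rose and 3 fell. Fth1, the ferritin heavy chain, stood at 642126, 639406 and 655172, against 222484, 271665 and 281467 (2.51-fold). The iron exporter gene Slc40a1 (log2 1.97) and the metal transporters Slc11a1 (1.41) and Slc11a2 (1.19) rose. Among retinoid and aryl hydrocarbon genes, 6 of 11 rose and 3 fell. Ahr, the ligand-activated transcription factor, stood at 1606, 1639 and 1582 in the combination libraries, against 249, 228 and 282 in the IgG libraries (6.37-fold; log2 2.67 ± 0.083). Its target genes Cyp1b1 (log2 2.00), Ahrr (1.06) and Tiparp (0.64) were higher as well. Aldh1a2, which makes retinoic acid, stood at 5519, 5555 and 5411, against 4858, 4558 and 4678 (log2 0.23 ± 0.051), a small rise that was not called in the fit of all 24 libraries (adjusted p = 0.118).

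Alternative activation genes fell in 11 of 19 tested members and rose in 5, with a median log2 fold change of -0.66. Mrc1, the mannose receptor, stood at 4589, 4509 and 4466 in the combination libraries, against 10738, 10944 and 12463 in the IgG libraries (2.51-fold lower; log2 -1.33 ± 0.061). Clec10a stood at 939, 847 and 887, against 2759.7, 2685 and 2382, and the transcription factor gene Klf4 at 3769, 3864 and 3910.4, against 9727, 8745 and 10593. No combination library overlapped the IgG range. Chil3, a chitinase-like protein and the gene with the most reads in each of these libraries, stood at 1181547, 1138386 and 1128275, against 1723710.0, 1655943 and 2090660.0 (log2 -0.66 ± 0.08). The members that rose included Ccl22 and Pdcd1lg2, given above, and numbered 3 in the fit of all 24 libraries.

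Glycolysis genes differed by small steps. Of 21 glycolysis genes, 19 rose and 1 fell, none by over 2-fold, with a median log2 fold change of 0.42. The glucose transporter gene Slc2a1 (log2 0.82), the lactate exporter gene Slc16a3 (0.85), Pfkl (0.68) and Pkm (0.60) were among them. Pfkfb4 was the member that fell (-0.49). Hypoxia-responsive genes rose in 13 of 15 and fell in 2 (1 without combination replicate 3), led by the prolyl hydroxylase gene Egln3 at 2012, 1925 and 1891 in the combination libraries, against 373, 370.4 and 387 in the IgG libraries (log2 2.36 ± 0.066). Genes of PPAR-gamma and fatty acid storage fell in 11 of 18 and rose in 3. Pparg, the lipid-sensing receptor, stood at 841, 861 and 867, against 1523, 1519 and 1498 (log2 -0.82 ± 0.06), and Acsl1, which activates fatty acids, at 13697, 13313 and 12854, against 2348, 2154 and 2533 (log2 2.50 ± 0.063). The pair moved in opposite directions. Of 21 cholesterol synthesis genes, 4 rose and 8 fell (2 and 5 in the fit of all 24 libraries), and Sc5d had the smallest p (log2 -0.54). Respiratory chain genes fell in 19 of 25 and ribosomal protein genes in 24 of 29, with medians of -0.34 and -0.35, but 3 and 1 were called lower in the fit of all 24 libraries.

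Of 21 tested matrix and protease genes, 16 rose and 4 fell. Mmp14, a membrane-bound matrix metalloprotease, stood at 8573, 9018 and 9119.6 in the combination libraries, against 2003, 1916 and 2291 in the IgG libraries (4.31-fold; log2 2.11 ± 0.067). The collagenase genes Mmp13 (log2 0.87) and Mmp8 (0.80) and the sheddase gene Adam8 (0.74) rose, beside Lox and in contrast to Matn2. Prostaglandin and leukotriene genes split, with 5 of 15 higher and 6 lower. The inducible pair of prostaglandin E2 synthesis, Ptgs2 (COX-2; log2 1.19) and Ptges (1.95), rose, and the constitutive Ptgs1 (COX-1; -0.75) and the thromboxane synthase gene Tbxas1 (-0.73) fell. Of 24 lysosome and phagocytosis genes, 11 rose and 7 fell, and 5 and 4 did in the fit of all 24 libraries. Gpnmb, a glycoprotein of lysosome-rich macrophages, stood at 434732, 421936 and 409146, against 199711, 213254 and 250284 (log2 0.94 ± 0.075).

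Stress and growth lists were mixed. Unfolded protein response genes fell in 8 of 17 and rose in 2, with Xbp1, its transcription factor, lower (log2 -0.64) and Hspa5, the chaperone BiP, lower (-0.39). In the fit of all 24 libraries 3 of them fell and 1 rose, and 1 rose under a replicate block and when IgG replicate 2 or any combination library was left out. Heat shock genes rose in 7 of 12 and fell in 3, with the mitochondrial chaperonin genes Hspd1 (log2 -0.66) and Hspe1 (-0.64) lower, the last not in the fit of all 24 libraries (adjusted p = 0.103). Immediate early genes rose in 13 of 23 and fell in 6 (8 and 3 in the fit of all 24 libraries), with Fos lower (log2 -0.71) and Nr4a3 higher (1.10). LXR and cholesterol efflux genes rose in 5 of 15 and fell in 7 (2 and 3 in the fit of all 24 libraries). Ch25h, which makes 25-hydroxycholesterol, stood at 879, 829 and 895 in the combination libraries, against 1584, 1716 and 1454 in the IgG libraries (log2 -0.87 ± 0.072). Tolerogenic and regulatory genes rose in 7 of 15 (11 of 19 in the fit of 12 libraries) and fell in 4 (2 of 19 in that of all 24). The rises included Hmox1 and the falls Arg1, both given above, and Gas6 (log2 -0.51), a ligand of the Mertk receptor. Chemokine receptor genes rose in 4 of 10 and fell in 4 (2 in the fit of all 24 libraries), with the atypical receptor gene Ccrl2 higher (log2 1.15).

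All 33 tested cell cycle genes fell, 17 of them by over 2-fold, with a median log2 fold change of -1.03. The summed level of the list was 40572 to 41299.5 in the combination libraries, against 76039 to 78489 in the IgG libraries. Ube2c, the ubiquitin-conjugating enzyme of mitotic exit whose promoter is shown above, stood at 1088, 1137 and 1130.1 in the combination libraries, against 3633, 3633 and 3151 in the IgG libraries (3.10-fold lower; log2 -1.63 ± 0.066; adjusted p = 1.52e-10). The mitotic cyclin gene Ccnb2 stood at 551, 492 and 501, against 1553, 1651 and 1509 (3.05-fold lower). Rrm2, a subunit of ribonucleotide reductase, stood at 1635, 1576 and 1551, against 3559, 3797 and 3545 (2.29-fold lower). Mitotic genes and DNA synthesis genes were both included, with Ccna2 (log2 -1.38), Ccnb1 (-1.28) and Tyms (-1.37) lower as well. In the fit of all 24 libraries 31 of the list were called lower; the exceptions were Ccne2 (adjusted p = 0.155) and Kif20a (adjusted p = 0.212). The growth regulator gene Myc also fell (log2 -1.06).

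Markers of other cells moved with the treatment. Of 23 tested T cell markers, 22 rose and 0 fell, 19 by over 2-fold, with a median log2 fold change of 1.38. Their summed level was 18851 to 19023 normalised counts in the combination libraries, against 8535 to 9045 in the IgG libraries. Cd3e stood at 196, 169 and 198, against 39.8, 49.1 and 54.0 (3.90-fold; log2 1.96 ± 0.15), and Cd8a at 1346, 1265 and 1337, against 434, 457 and 379 (log2 1.64 ± 0.08). Natural killer and cytotoxic markers rose in 13 of 14, with sums of 10459.9 to 11141 in the combination libraries and 3562 to 4096 in the IgG libraries. Gzmb, the cytotoxic protease granzyme B, stood at 2355, 2296 and 2321, against 702, 792 and 652 (log2 1.70 ± 0.073). No T cell marker was at 0 in either group. All 9 tested mast cell and basophil markers rose (sums 2081 to 2276, against 812 to 874), as did 5 of 5 erythroid and platelet markers (sums 4709 to 5045, against 2263 to 2918) and 4 of 6 B cell markers (sums 1009.5 to 1075, against 711 to 816). Sums of marker lists here and below also include measured markers under the filter, which were not tested. The part of T and cytotoxic cells in the rises of Ifng, Gzmb and other genes that they share with the lists above was not tested.

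Within the myeloid lists, 8 of 10 markers of all conventional dendritic cells rose and 0 fell (sums 84099 to 86525 in the combination libraries, against 63336 to 65215 in the IgG libraries). Itgax, given above and carried by many macrophages as well, makes up most of these sums. Macrophage and monocyte markers rose in 5 of 19 and fell in 10 (sums 355266 to 364089, against 437296 to 479594). Lyz2, given above, makes up most of these sums. The complement gene C1qb stood at 5935, 6105 and 6174 in the combination libraries, against 15514, 16338 and 14168 (log2 -1.33 ± 0.059). Markers of cDC1, the cross-presenting subset, split into 3 higher and 3 lower of 12, and those of cDC2 into 4 and 4 of 10. Sums of cDC1 markers were 19193 to 19518 in the combination libraries, against 23967 to 25149 in the IgG libraries. Those of cDC2 were 83338 to 87257, against 115136 to 119919. The cDC2 list also holds Clec10a and Klf4, given above with the alternative activation genes. Clec9a, a cDC1 receptor for dead cells, stood at 492, 456 and 472, against 284, 292 and 334 (log2 0.64 ± 0.089), and Xcr1, the chemokine receptor of the same subset, at 113, 77.6 and 107, against 86.7, 97.0 and 87.1, which did not pass the test. Plasmacytoid markers rose in 6 of 9 and fell in 2, and neutrophil markers in 3 and 2 of 9. The fit of 12 libraries, which tests more members, called 5 of 13 cDC1 and 5 of 12 neutrophil markers higher. Plasma cell markers rose in 3 of 5 and fell in 1, and innate lymphoid markers rose in 3 of 3. Stromal, endothelial and epithelial markers rose in 3 of 7 and fell in 3, with sums of 5315 to 5797 in the combination libraries, against 6275 to 6964 in the IgG libraries. How far a change in the mix of dendritic cells and macrophages enters the gene groups above was not tested.

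**Figure D4:**
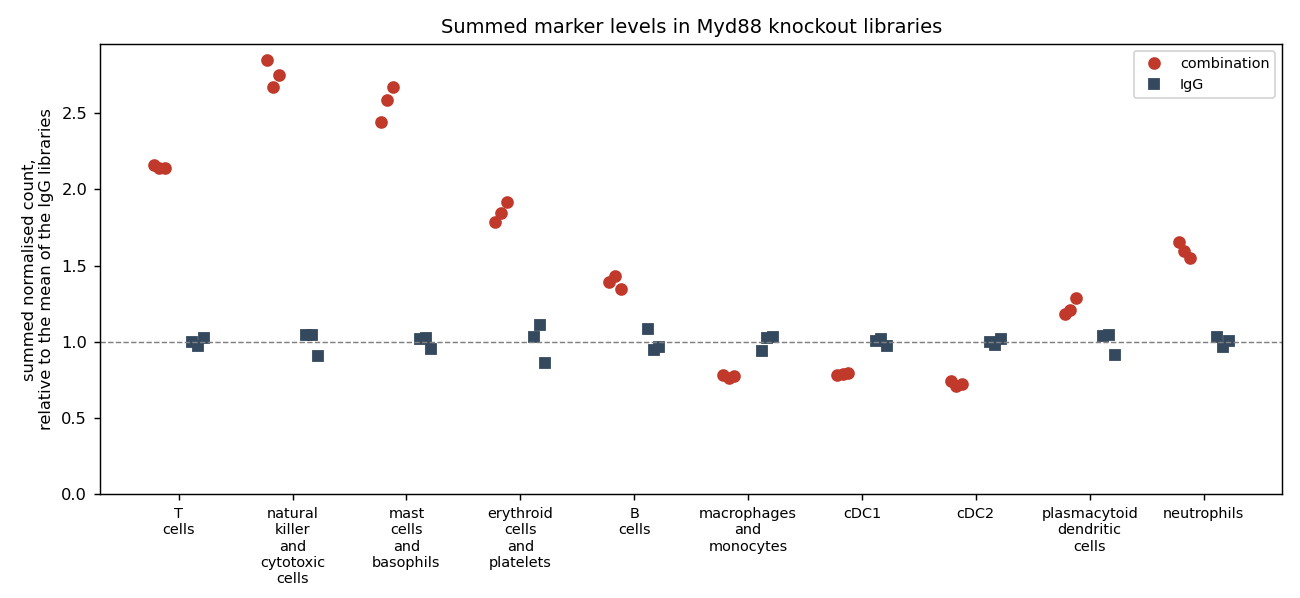
Summed normalised counts of each cell type's measured markers per library, tested or not, divided by the mean of the 3 IgG libraries (dashed line at 1; linear axis from 0), with the combination libraries on the left of each pair. T cell, cytotoxic, mast cell, erythroid, B cell, plasmacytoid and neutrophil sums lie above the IgG libraries, and macrophage, cDC1 and cDC2 sums lie below them. Most of the macrophage sum is Lyz2. The list of all conventional dendritic cells is not drawn, and its sums were higher with the combination (84099 to 86525, against 63336 to 65215).

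The same treatment contrast in wild-type mice, which shares no library with the knockout one, called 9388 of 12695 genes (74%), of which 4661 were higher with the combination (36.7%) and 4727 lower (37.2%). Of the genes that rose in the knockout, 2293 also rose in wild type (62.4% of the knockout rises and 52.3% of the wild-type rises), and 653 fell there. Of those that fell in the knockout, 2413 also fell in wild type (68.2% and 51.3%), and 427 rose. Across 12226 genes tested in both, the log2 fold changes had a Pearson r of 0.592, as a description over genes that share libraries. The combination effect differed between the genotypes, by a test of the difference, in 7371 genes (58.1%). The difference, as the knockout effect minus the wild-type effect with its sign, was positive in 4007 genes (31.6%) and negative in 3364 (26.5%). Knockout and wild-type libraries also differ in the Y-linked transcripts given above, and the part of that difference was not tested.

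The inflammatory cytokines had the largest median difference of the lists, with the combination effect lower in the knockout in 19 of 25 members and a median difference of -2.64 on the log2 scale. In wild-type mice Il6 stood at 14588, 14193 and 14849 with the combination, against 722, 735 and 741 with IgG, so that it rose there (log2 4.31 ± 0.054) and fell in the knockout (difference -5.80 ± 0.076; adjusted p = 8.96e-19). Il12b differed by -5.48 ± 0.36 and Il1b by -5.40 ± 0.097. Tnf stood at 55927, 49484 and 50595 in wild-type combination libraries, against 680.3, 658 and 585 in wild-type IgG libraries, so it rose in both genotypes and by less in the knockout (difference -3.66 ± 0.11). The difference was negative in 34 of 41 type I interferon members (median -0.93), 21 of 26 NF-kB regulators (median -0.67) and 18 of 21 maturation genes (median -1.54). Among single genes, Il1f9 and Nfkbie did not pass the test of the difference, at -0.23 ± 0.19 and 0.09 ± 0.082, and neither did Tlr2 at -0.00071 ± 0.067. Acod1 rose by more in the knockout (difference 1.33 ± 0.063; adjusted p = 7.92e-12), as did Cyp26b1 (0.61 ± 0.19).

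For alternative activation genes the difference was positive in 16 of 19 members (median difference 1.86). Their median log2 fold change was -0.66 in the knockout and -2.14 in wild type, so the median fall was smaller in the knockout. Arg1 stood at 1082, 1113 and 1152 in wild-type combination libraries, against 74089.5, 70866 and 67268 in wild-type IgG libraries, a change of -5.99 ± 0.053 on the log2 scale, beside -1.59 ± 0.056 in the knockout (difference 4.40 ± 0.075; adjusted p = 2.42e-17). Cell cycle genes fell in both genotypes, 33 of 33 in the knockout and 32 in wild type. The difference was positive in 20 members, negative in 4 and not called in 9. For T cell markers the effect was higher in the knockout in 21 of 23 members (median difference 1.15), and of all 23, 13 rose and 4 fell in wild type. For glycolysis genes the difference in the combination effect was positive in 13 of 21 and negative in 3.

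**Figure D5:**
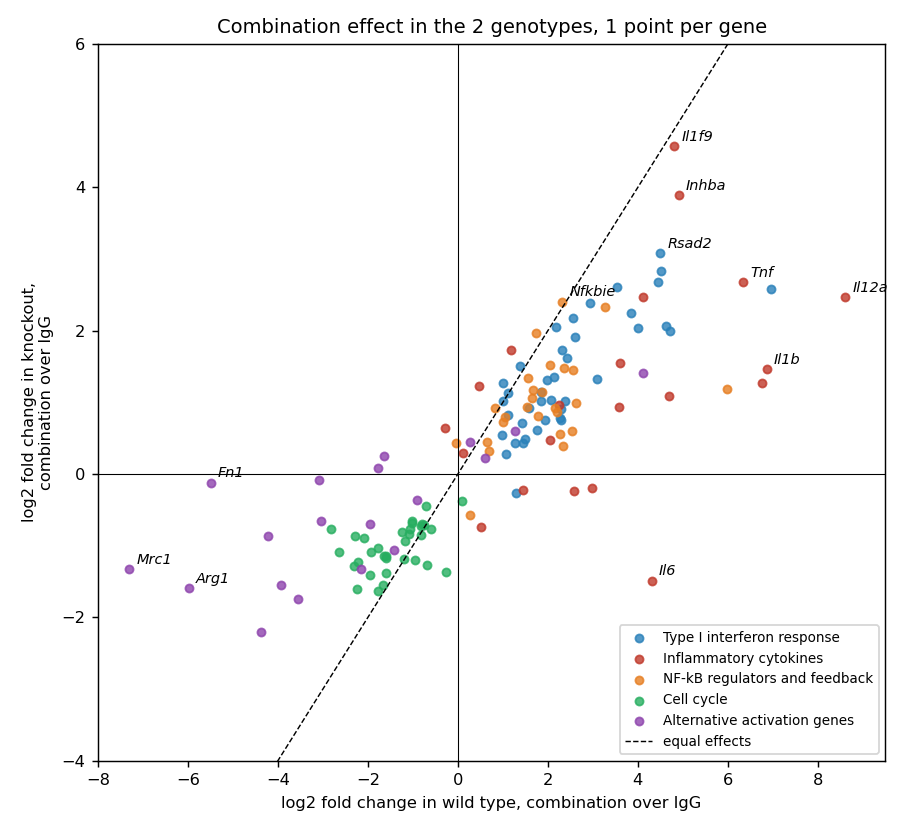
Each point is 1 gene of 5 lists, with its log2 fold change (combination over IgG) in Myd88 knockout mice on the vertical axis and in wild-type mice on the horizontal axis; the dashed line marks equal effects. Interferon and cytokine genes lie mostly to the right of the line, Il6 rises in wild type (4.31) and falls in the knockout (-1.49), and Il1f9 lies close to the line (4.57 in the knockout and 4.81 in wild type).

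The single treatments in the knockout give levels beside which the combination can be set, with no test. Cyp26b1 stood at 801 to 1242 normalised counts in the 3 knockout libraries with LGG alone and at 41.5 to 75.1 in the 3 with anti-PD-1 alone. Rsad2 stood at 3337 to 5072 with LGG and 254 to 335 with anti-PD-1, and Tnf at 3204 to 4706 and 459.7 to 792. Clec4e stood at 13908 to 14304 with LGG, above all 3 combination libraries, and at 570.4 to 685 with anti-PD-1. For Arg1 the LGG libraries held 39953 to 41613 and the anti-PD-1 libraries 65843 to 127273. In these 5 genes the LGG libraries lay nearer to the combination values given above than to the IgG values. The anti-PD-1 libraries lay nearer to the IgG values, apart from Arg1 in the lowest of them. All 5 genes changed over 2-fold between combination and IgG, and they do not stand for the other genes. How many of all genes lie in this way was not counted. No antibody dose is recorded for the libraries with LGG alone.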

How the data were processed

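CD11c-positive cells of 24 libraries were profiled by RNA sequencing. The authors deposited 1 table of normalised signal, that is, read counts per gene divided by a factor for each library. Per the submitters' processing notes, STAR 2.4.0, HTSeq 0.6.1 and DESeq2 (version not stated) were used with genome build mm10. Dividing each of the 6 knockout columns by its smallest step gave whole reads for 100% of values, within a tolerance of 0.001, and these served the count tests. Groups follow the labels. Genes were tested with limma 3.58.1 (R 4.3.3), with mean-variance trend and robust variances, on log2(value + 1) of the 6 libraries, for genes with a mean of at least 10. P-values are two-sided, adjusted by Benjamini and Hochberg over all genes tested and called below 0.05. Errors of log2 fold changes are standard errors, and fold changes are on the log2(value + 1) scale, which understates those of low genes. The difference between knockout and wild type was the interaction in 12 libraries, and the wild-type contrast came from a fit of the same 12.

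The members, the 48 gene and marker lists and the tests were chosen with earlier results of these data known. Named genes are the 12 largest rises and 12 largest falls among called genes whose libraries do not overlap and whose higher group averages at least 20, passing over predicted genes and receptor segments, up to 6 members with the smallest p in each list, and 43 genes fixed by name, of which 40 were in the table. Members that moved against their list, lost their call, or are named for their level (Lyz2, Chil3, Ifit3b) were chosen after their values were seen. Some genes that these rules name are not reported here. Promoters come from RefSeq (GRCm38.p6), gene coordinates from GENCODE vM21 on the same build. Alternatives were another pseudocount and filters, TMM scaling, a fit of all 24 or of 12 libraries, array weights, a replicate block, edgeR 4.0.16, DESeq2 1.42.0 and leaving out each library. The statistical steps were tested on simulated data. Counting depth limits precision for genes of few reads.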

Additional observations from a re-analysis of the deposited data

Results flagged for a closer look

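The combination effect differed between Myd88 knockout and wild-type mice, by a test of the difference itself (limma interaction over 12 libraries), in 7371 of 12695 genes. Differences below are the knockout effect minus the wild-type effect on the log2 scale, so a negative value means that the knockout effect lay below the wild-type one. They are listed for genes fixed by name and were each called at an adjusted p below 0.05. Each listed gene was also called between combination and IgG in the knockout. Fixed genes not called or not tested in that comparison are left out, so the list need not hold every fixed gene that differed.

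Among cytokines the difference was -6.15 for Il12a, -5.80 for Il6, -5.48 for Il12b, -5.40 for Il1b, -3.66 for Tnf and -1.85 for Ifng. Interferon-response genes differed by -2.73 (Isg15), -2.00 (Cxcl10), -1.60 (Irf7) and -1.42 (Rsad2). Costimulatory and migration genes differed by -3.00 (Cd40), -2.96 (Cd86), -2.69 (Cd80), -2.13 (Ccr7) and -1.30 (Cd274). For these genes the direction in the knockout was upward except for Il6. The difference was 0.19 for Pdcd1lg2, which rose in both genotypes.

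Nos2 differed by -3.65 and Arg1 by 4.40. The C-type lectin gene Clec4e differed by -1.64, Aldh1a2 by -1.37, Cyp26b1 by 0.61 and Ch25h by 1.17. Of the dendritic cell genes, Zbtb46 differed by -1.47, Itgax by 1.70 and Clec9a by 3.45. The lymphocyte genes Cd3e and Gzmb differed by 1.82 and 1.30. Myd88 differed by -0.70. Knockout and wild-type libraries also differ in Y-linked transcripts and in their levels with IgG, and the part of either in these differences was not tested.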

How the results depend on the processing

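The count of called genes (7219) ran from 6581 to 9094 under another pseudocount, no filter, a filter at a mean of 50, TMM scaling, a fit of 12 libraries, array weights, edgeR and DESeq2, and from 6165 to 8027 when each library was left out. It was 4267 in the fit of all 24 libraries, with 57% of calls higher instead of 50.9%; that fit shares 1 spread with the wider knockout groups. Genes over 2-fold (1204) ran from 1182 to 1316 with each library left out and were 783 under the filter at a mean of 50, which tests 10742 genes. For the knockout minus wild-type difference (7371), leaving out each library gave 6891 to 7604 and the fit of all 24 libraries gave 4312. Replicate numbers did not pair the samples: same-numbered libraries had correlations of deviations of -0.0099, -0.0265 and -0.1284, and no library correlated best with its own number. A replicate block gave 6777 called genes, 1207 over 2-fold and 7272 for the difference. Of 4517 values of the 284 named genes under all settings, 4460 kept their side of the threshold. Another 53 lost their call, 34 of them in the fit of all 24 libraries, 4 gained one and 0 reversed. A change of sign counted as a reversal only where the gene was called in either fit. Of 96 list counts, 24 moved by over 1.5 times in the fit of all 24 libraries and at most 6 under any other setting. Genes with a few reads per library, such as Col4a5, Il12a and Il12b, are limited by counting error.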
